A study of Homo sapiens with 16 samples.

Results

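KLK2, KLK3, KLK4 and KLK15 are the kallikrein genes of the prostate, and they were described here across LNCaP cells in which the O-GlcNAc transferase OGT was depleted or inhibited and cyclin-dependent kinases were inhibited. The members were taken by name: they are the rows of the deposited count table whose Ensembl gene ID maps to one of these symbols, and there were 4 of 60252 genes. LNCaP is an established, androgen-responsive prostate carcinoma line derived from a lymph node metastasis, and its RNA was sequenced in 16 libraries that make 8 groups of 2. The arms were siOGT1 and siOGT2, which are siRNAs against OGT given for 48 hours, OSMI2, a small-molecule OGT inhibitor that the labels list in the siRNA field, and the control arm Scr. Every arm was given AT7519, an inhibitor of several cyclin-dependent kinases including CDK9, at 0.5 μM, or DMSO, for 4 hours before harvest. All groups are 1 cell line, so they show no spread between patients or lines. The sources used here do not give OSMI2's dose or exposure time, nor whether those cells also received the control siRNA.

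Tissue kallikreins are secreted serine proteases whose genes lie side by side on chromosome 19. KLK3 is the prostate-specific antigen (PSA), which cleaves semenogelins and so liquefies semen. KLK2 and KLK15 can remove the propeptide of KLK3 in vitro, and KLK4 is a protease of prostate epithelium and developing tooth enamel. In prostate luminal cells KLK2 and KLK3 are textbook androgen-regulated genes, with androgen response elements near their starts. CDK9 phosphorylates RNA polymerase II and allows it to leave the promoter-proximal pause. OGT attaches O-GlcNAc to serine and threonine residues of nuclear and cytoplasmic proteins.

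The 250 bases before the transcription start of each gene are shown because KLK2 and KLK3 shared sequence there that KLK4 and KLK15 lacked. The sequences are RefSeq's on GRCh38.p14, each read 5′ to 3′ on the gene's strand. KLK4 and KLK15 each have 2 listed starts, of which the first in the table is shown. Capitals mark a TATA element (TTATA, searched 40 to 20 bases before the start on the gene's strand) and a loose androgen response element (GNACANNNNGTNC, searched on both strands), whose letters were chosen with the known KLK3 element in view.
KLK2 (chr19:50873189-50873438, plus strand): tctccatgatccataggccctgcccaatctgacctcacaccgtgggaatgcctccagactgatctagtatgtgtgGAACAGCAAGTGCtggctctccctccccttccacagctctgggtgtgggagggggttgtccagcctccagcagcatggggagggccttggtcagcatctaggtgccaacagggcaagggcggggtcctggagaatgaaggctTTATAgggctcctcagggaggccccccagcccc
KLK3 (chr19:50854665-50854914, plus strand): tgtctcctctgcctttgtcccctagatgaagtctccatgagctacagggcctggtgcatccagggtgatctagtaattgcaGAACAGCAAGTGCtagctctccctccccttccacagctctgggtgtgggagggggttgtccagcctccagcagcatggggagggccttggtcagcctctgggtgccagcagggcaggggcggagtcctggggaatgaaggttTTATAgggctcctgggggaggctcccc
KLK4 (chr19:50911396-50911645, minus strand): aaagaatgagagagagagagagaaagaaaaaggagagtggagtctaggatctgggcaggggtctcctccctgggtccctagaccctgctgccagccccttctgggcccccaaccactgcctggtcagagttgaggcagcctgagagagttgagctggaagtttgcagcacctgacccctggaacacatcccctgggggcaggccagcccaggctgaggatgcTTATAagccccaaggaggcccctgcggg
KLK15 (chr19:50833575-50833824, minus strand): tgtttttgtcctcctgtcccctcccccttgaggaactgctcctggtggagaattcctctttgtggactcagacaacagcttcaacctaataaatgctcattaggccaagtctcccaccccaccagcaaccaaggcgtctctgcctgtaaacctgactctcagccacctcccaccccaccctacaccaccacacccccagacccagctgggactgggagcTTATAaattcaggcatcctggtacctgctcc

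The windows searched ran from 250 bases before to 50 bases after each start. The same 13 letters, GAACAGCAAGTGC, stood 175 to 163 bases before the start of KLK2 and 169 to 157 bases before that of KLK3. No window of KLK4 or KLK15 held the loose element, which 2.19% of 35116 windows of this length held. The stricter palindromic form GNACANNNTGTNC was in none of the members' windows and in 0.390% of all windows. A TATA element lay in the first window of each of the 4 genes, but not in the second windows of KLK4 and KLK15. Of all windows 1.59% held it. Over the whole window KLK2 and KLK3 were identical in 251 of 316 alignment columns (79.4%), and the other 5 pairs in 48.3% to 52.8%. A match is a stretch of letters, and binding was not measured.

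The libraries held 40216911 to 147019364 counts, and 23830 genes passed the low-count filter, the 4 members among them. OGT, the target of both siRNAs, stood at 11.0 to 20.7 CPM in the 4 siOGT1 libraries and at 29.3 to 36 CPM in the 4 siOGT2 libraries. OGT stood at 336 to 422 CPM in the OSMI2 libraries and at 256 to 314 CPM in the Scr libraries. CPM, or scaled counts, are raw counts set relative to the library total multiplied by its TMM factor. All 6 luminal prostate markers were expressed, with a summed level of 2433 to 3659.7 CPM over all libraries. None of the 5 leukocyte markers passed the filter. Of the 5 basal markers 2 were tested, and TP63 and KRT5 were at or near 0, and of the neuroendocrine markers SYP stood at 2.56 to 7.08 CPM and CHGA under 0.2 CPM. The labels do not say whether a group's 2 libraries are separate cultures. The p-values therefore rest on a spread between libraries that may be technical.

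KLK3 was by far the most abundant member. Per kilobase of exonic sequence its median over the 16 libraries was 242 CPM. By the mean over the libraries it had rank 124 of 23332 tested genes with a length, and the ranks that follow are also by the mean. KLK4 followed with 63.0 CPM per kilobase (rank 704) and KLK2 with 33.1 (rank 1453). KLK15 was a gene of middling level, with 1.43 CPM per kilobase and rank 11647. The lengths are the summed exons of all listed transcripts, 6394 bases for KLK2, 4639 for KLK3, 1935 for KLK4 and 2289 for KLK15, so rarely used exons lower the values of KLK2 and KLK3. KLK3 alone took 0.0680% to 0.158% of all counts in a library. Raw counts were 42130 to 205900 for KLK3, 7799 to 36761 for KLK2, 4883 to 16020 for KLK4 and 126 to 806 for KLK15, so counting error is smallest for KLK3 and largest for KLK15. KLK2 and KLK3 shared 11 of their 50-base exon windows (0.159% of those of KLK2) and no window of 100 bases, so few reads could be assigned to either.

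KLK2 had 234 and 251 CPM in siOGT1, 122 and 146 in siOGT2, 276 and 341 in OSMI2 and 173 and 215 in Scr with AT7519. Under DMSO it had 229.5 and 258 CPM in siOGT1, 138 and 154 in siOGT2, 208 and 243 in OSMI2 and 167 and 206 in Scr. The OSMI2 libraries with AT7519 lay above all others and the 4 siOGT2 libraries below all others. KLK3 had 1371 and 1183 CPM in siOGT1, 780.2 and 727 in siOGT2, 1271 and 1658 in OSMI2 and 1123 and 1096 in Scr with AT7519. Under DMSO it had 1286 and 1302 CPM in siOGT1, 785 and 801 in siOGT2, 1127 and 1400.1 in OSMI2 and 1029 and 1074 in Scr. Again the 4 siOGT2 libraries were the lowest, and none overlapped a library of another arm.

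KLK4 had 117 and 123 CPM in siOGT1, 88.7 and 93.0 in siOGT2, 154 and 149.9 in OSMI2 and 136 and 163 in Scr with AT7519. Under DMSO it had 100.03 and 99.4 CPM in siOGT1, 91.5 and 92.9 in siOGT2, 150.2 and 151 in OSMI2 and 120.2 and 129 in Scr. Here every library of both siRNA arms was below every Scr library of the same agent. KLK15 had 4.18 and 6.01 CPM in siOGT1, 2.62 and 3.32 in siOGT2, 3.53 and 5.05 in OSMI2 and 2.34 and 3.11 in Scr with AT7519. Under DMSO it had 5.03 and 5.51 CPM in siOGT1, 3.04 and 2.87 in siOGT2, 2.62 and 3.37 in OSMI2 and 2.61 and 3.24 in Scr. The mean of KLK15 was highest in siOGT1, and its siOGT2 and Scr libraries overlapped.

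**Figure D1:**
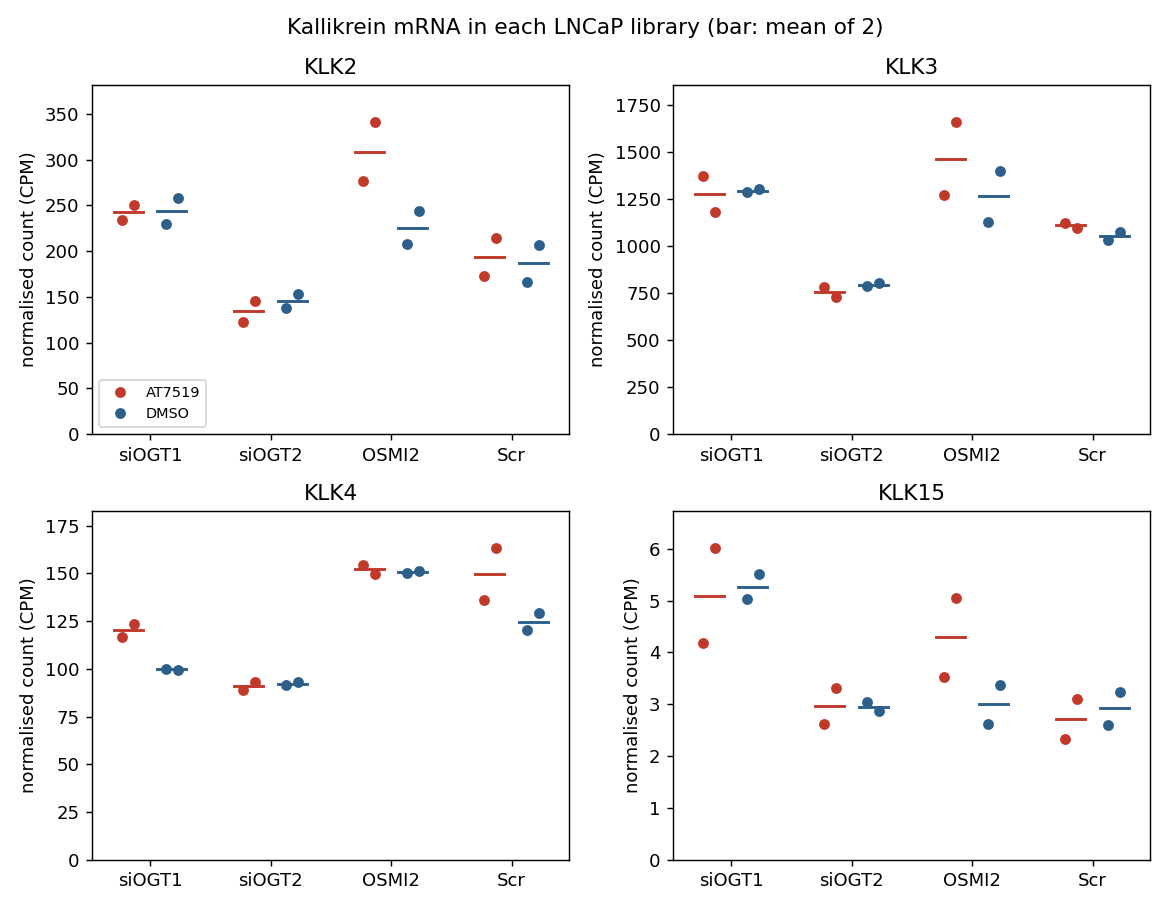
Normalised counts (CPM) of KLK2, KLK3, KLK4 and KLK15 in each of the 16 libraries, by arm on the x axis, with AT7519 in red left of DMSO in blue; each point is a library and each bar the mean of 2. The siOGT2 libraries are the lowest for KLK2 and KLK3, and the KLK15 mean is highest in siOGT1.

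From the highest to the lowest group mean, KLK2 ran from 309 ± 45.8 CPM (SD, n = 2) in OSMI2 with AT7519 to 134 ± 16.7 CPM in siOGT2 with AT7519, a 2.30-fold range. The first group stood clear of the next, siOGT1 under DMSO at 244 ± 19.9 CPM, and Scr under DMSO at 187 ± 28.1 CPM stood clear of siOGT2 under DMSO at 146 ± 11.3 CPM. All other neighbours in the order overlapped. KLK3 ran from 1465 ± 274 CPM in OSMI2 with AT7519 to 754 ± 37.4 CPM in siOGT2 with AT7519, a 1.94-fold range. Its 4 highest groups, those of OSMI2 and siOGT1, overlapped one another in turn, and each lower neighbour stood apart. KLK4 ran from 152 ± 3.11 CPM in OSMI2 with AT7519 to 90.8 ± 3.07 CPM in siOGT2 with AT7519, a 1.67-fold range, with Scr under DMSO and siOGT1 with AT7519 overlapping in the middle. KLK15 ran from 5.27 ± 0.338 CPM in siOGT1 under DMSO to 2.72 ± 0.547 CPM in Scr with AT7519, a 1.94-fold range, and only OSMI2 with AT7519 and OSMI2 under DMSO were neighbours that did not overlap. For comparison, the 2 libraries of a group differed by up to 1.24-fold for KLK2, 1.30-fold for KLK3, 1.20-fold for KLK4 and 1.44-fold for KLK15.

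The first question the design raises is what loss of OGT does to these genes. KLK4 fell with both siRNAs, KLK3 fell with siOGT2 and KLK15 rose with siOGT1. Under DMSO, 2 of 4 members passed the test with siOGT1, 1 higher and 1 lower, where 10.4% of all tested genes passed. KLK4 fell 1.25-fold (log2 fold change -0.32, SE 0.08, adjusted p = 0.0151), while KLK15 rose 1.80-fold (log2 fold change 0.85, SE 0.23, adjusted p = 0.0187). KLK2 (log2 fold change 0.39, SE 0.13, adjusted p = 0.0769) and KLK3 (log2 fold change 0.30, SE 0.11, adjusted p = 0.0896) did not pass. All adjusted p-values are Benjamini-Hochberg values over the 23830 genes from edgeR's quasi-likelihood test, two-sided, with 2 libraries per group. The KLK4 call ended without Scr replicate 2 (-0.27, adjusted p = 0.154) or without siOGT1 replicate 1 or 2 (adjusted p = 0.0815 and 0.129), and with scaling by library size only (-0.27, adjusted p = 0.0612). The KLK15 call ended without any 1 of the 4 libraries, with log2 fold changes of 0.70 and 1.01 without Scr replicates 1 and 2 and of 0.91 and 0.79 without siOGT1 replicates 1 and 2.

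With siOGT2 under DMSO, KLK4 fell 1.35-fold (log2 fold change -0.44, SE 0.08, adjusted p = 0.00465) and KLK3 fell 1.33-fold (log2 fold change -0.41, SE 0.11, adjusted p = 0.0381). KLK2 had -0.36, SE 0.13, adjusted p = 0.16 and KLK15 0.02, SE 0.23, adjusted p = 0.982. Of all tested genes 4.3% passed in this comparison and 2.38% fell. The KLK3 value held between -0.44 and -0.38 with each of the 4 libraries left out, but the call ended each time (adjusted p = 0.127 and 0.233 without Scr replicates 1 and 2, and 0.179 and 0.218 without siOGT2 replicates 1 and 2). It also ended with upper-quartile scaling (-0.37, adjusted p = 0.0711) and library size only (-0.35, adjusted p = 0.0673). The KLK4 call ended without Scr replicate 2 (-0.39, adjusted p = 0.0779) and without siOGT2 replicate 2 (-0.45, adjusted p = 0.0569).

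OSMI2 under DMSO left all 4 members short of the threshold, where 2.98% of tested genes passed. The values were 0.28, SE 0.13, adjusted p = 0.336 for KLK2, 0.26, SE 0.11, adjusted p = 0.23 for KLK3, 0.27, SE 0.08, adjusted p = 0.0778 for KLK4 and 0.04, SE 0.23, adjusted p = 0.964 for KLK15. KLK4 in OSMI2 thus had the opposite sign to its fall with both siRNAs, and its 150.2 and 151 CPM lay above the 120.2 and 129 CPM of Scr. The 3 comparisons share the 2 Scr libraries.

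The same comparisons were made with AT7519 present. With siOGT2, 3 of 4 members fell, where 8.16% of tested genes passed and 3.48% fell. KLK4 fell 1.65-fold (log2 fold change -0.72, SE 0.08, adjusted p = 2.40e-05), KLK3 1.47-fold (log2 fold change -0.56, SE 0.11, adjusted p = 0.00337) and KLK2 1.44-fold (log2 fold change -0.53, SE 0.13, adjusted p = 0.0206). KLK15 had 0.12, SE 0.24, adjusted p = 0.84. The KLK3 and KLK4 calls held under every alternative run. The KLK2 call ended without Scr replicate 2 (-0.36, adjusted p = 0.201), without siOGT2 replicate 1 (-0.41, adjusted p = 0.177), in a fit of these 2 groups alone (-0.53, adjusted p = 0.109) and with library size only (-0.50, adjusted p = 0.0784).

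With siOGT1 and AT7519, KLK4 fell 1.25-fold (log2 fold change -0.32, SE 0.08, adjusted p = 0.00998) and KLK15 rose 1.87-fold (log2 fold change 0.91, SE 0.23, adjusted p = 0.0088), where 19.2% of tested genes passed. KLK2 (0.32, SE 0.13, adjusted p = 0.103) and KLK3 (0.20, SE 0.11, adjusted p = 0.213) did not pass. The KLK4 call ended without Scr replicate 2 (-0.17, adjusted p = 0.252), without siOGT1 replicate 1 (-0.29, adjusted p = 0.0757), with library size only (-0.25, adjusted p = 0.0628) and with these 2 groups alone (-0.29, adjusted p = 0.109). The KLK15 call ended without Scr replicate 1 (0.70, adjusted p = 0.0994), without siOGT1 replicate 2 (0.62, adjusted p = 0.152) and with these 2 groups alone (0.93, adjusted p = 0.0509).

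With OSMI2 and AT7519, KLK2 rose 1.59-fold (log2 fold change 0.67, SE 0.13, adjusted p = 0.00286) and KLK3 rose 1.32-fold (log2 fold change 0.40, SE 0.11, adjusted p = 0.0176), where 14.2% of tested genes passed and 5.18% rose. KLK4 (0.02, SE 0.08, adjusted p = 0.896) and KLK15 (0.64, SE 0.24, adjusted p = 0.0788) did not pass. OSMI2 replicate 2, at 341 CPM of KLK2 and 1658 CPM of KLK3, was the highest library for both genes, and it was also the shallowest of the series. Without it the values were 0.48 for KLK2 (adjusted p = 0.0787) and 0.17 for KLK3 (adjusted p = 0.444). The KLK2 call also ended without Scr replicate 1 (0.47, adjusted p = 0.0727), and the KLK3 call without Scr replicate 1 (0.36, adjusted p = 0.125) or 2 (0.35, adjusted p = 0.0979).

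**Figure D2:**
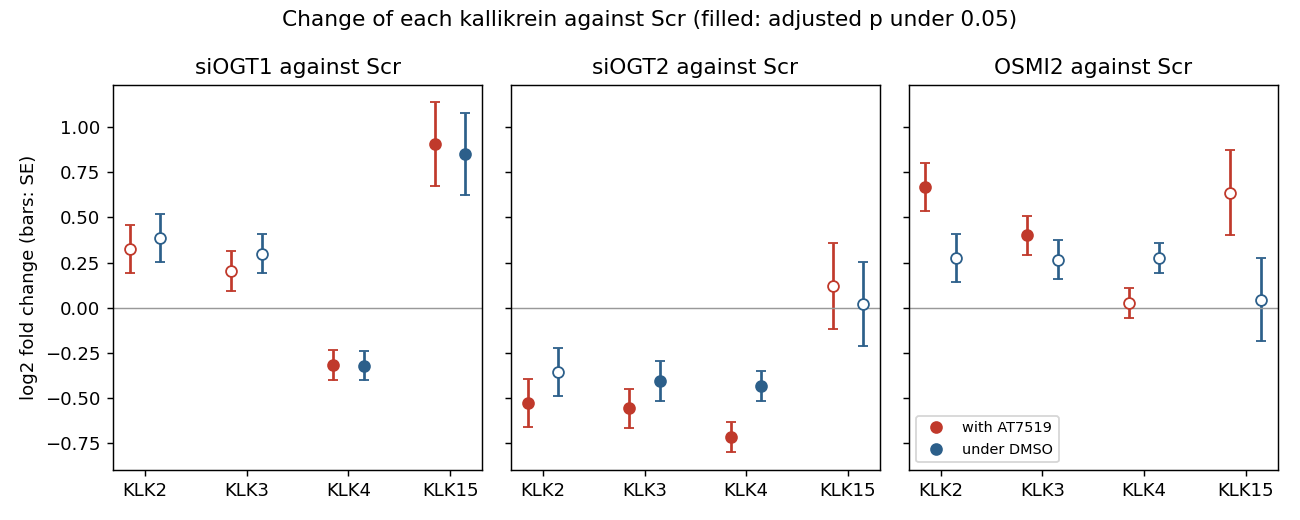
Log2 fold change of KLK2, KLK3, KLK4 and KLK15 against Scr in siOGT1, siOGT2 and OSMI2, with AT7519 in red left of DMSO in blue; points are edgeR estimates, bars their standard errors, and filled points passed an adjusted p of 0.05. KLK4 is below 0 with both siRNAs and above it with OSMI2 under DMSO, and KLK2 and KLK3 are above 0 in siOGT1 and below it in siOGT2.

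Because siOGT1 and siOGT2 target 1 mRNA, their arms were set against each other in a comparison added after the values had been seen. KLK2 was 1.67-fold higher in siOGT1 than in siOGT2 under DMSO (log2 fold change 0.74, SE 0.13, adjusted p = 0.00602) and KLK3 1.63-fold higher (log2 fold change 0.71, SE 0.11, adjusted p = 9.12e-04), where 1.82% of tested genes passed and 0.705% were higher. KLK4 (0.11, SE 0.08, adjusted p = 0.708) and KLK15 (0.83, SE 0.23, adjusted p = 0.0778) did not pass. With AT7519 all 4 members were higher in siOGT1, where 6.43% of tested genes passed and 2.87% were higher. KLK2 differed 1.81-fold (0.85, SE 0.13, adjusted p = 7.06e-04), KLK3 1.69-fold (0.76, SE 0.11, adjusted p = 1.65e-04), KLK15 1.73-fold (0.79, SE 0.23, adjusted p = 0.0452) and KLK4 1.32-fold (0.40, SE 0.08, adjusted p = 0.00432). OGT itself was lower in siOGT1 than in siOGT2, under DMSO (-0.88, SE 0.13, adjusted p = 0.00113) and with AT7519 (-1.52, SE 0.14, adjusted p = 2.10e-06), and its part in the differences between the arms was not tested.

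Both KLK3 calls and the KLK2 call with AT7519 held under every alternative. Under DMSO the KLK2 call ended without siOGT1 replicate 2 (0.66, adjusted p = 0.09) and without siOGT2 replicate 1 (0.67, adjusted p = 0.103). With AT7519 the KLK4 call ended without siOGT1 replicate 2 (0.37, adjusted p = 0.0542) and the KLK15 call without that library (0.50, adjusted p = 0.36) or siOGT2 replicate 1 (0.62, adjusted p = 0.235) or 2 (0.97, adjusted p = 0.0555). In a fit of the 2 arms alone KLK4 had an adjusted p of 0.0785 and KLK15 of 0.188.

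The second question is how the kallikreins responded to 4 hours of AT7519. Of all tested genes a large share passed in each arm, 41.5% in siOGT1, 45% in siOGT2, 47.2% in OSMI2 and 46.5% in Scr. Against that background 1 of 4 members passed in siOGT1, none in siOGT2, 1 in OSMI2 and 1 in Scr, and each of these was higher with AT7519. KLK4 in siOGT1 rose 1.20-fold, with a log2 fold change of 0.27 (adjusted p = 0.0126), as it did in Scr (0.26, SE 0.08, adjusted p = 0.0127). KLK2 rose 1.37-fold in OSMI2 (log2 fold change 0.45, SE 0.13, adjusted p = 0.01). These 3 calls depended on the scaling. With library size only KLK4 had 0.05 in siOGT1 and 0.02 in Scr and KLK2 0.20 in OSMI2, none past the threshold. All these values are relative to the other genes of a library, and they do not give the amount of mRNA per cell.

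KLK3 did not pass in any arm, with log2 fold changes of -0.02 ± 0.11 (SE) in siOGT1, -0.07 ± 0.11 in siOGT2, 0.21 ± 0.11 in OSMI2 and 0.08 ± 0.11 in Scr. KLK2 had -0.0066 ± 0.13 in siOGT1, -0.12 ± 0.13 in siOGT2 and 0.06 ± 0.13 in Scr. KLK15 had -0.04 ± 0.22 in siOGT1, 0.0058 ± 0.24 in siOGT2, 0.50 ± 0.23 in OSMI2 (adjusted p = 0.0842) and -0.09 ± 0.23 in Scr. The standard errors were larger for KLK15 than for KLK2 and KLK3. KLK4 had -0.02 ± 0.08 in siOGT2 and 0.01 ± 0.08 in OSMI2. The level of an mRNA after 4 hours depends on its decay as well as its synthesis, and neither was measured.

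The median of all tested genes moved by 0.11 to 0.17 (log2) in the AT7519 comparisons with upper-quartile scaling and by -0.27 to -0.22 with library size only, and by at most 0.10 in the comparisons with Scr. Of the genes called in Scr, 47% were higher with AT7519 under TMM scaling, 58.7% under upper-quartile scaling and 26.9% with library size only. With library size only KLK4 in OSMI2 was -0.24 (adjusted p = 0.0404), and in siOGT2 KLK3 was -0.34 (adjusted p = 0.0137) and KLK4 -0.29 (adjusted p = 0.0151). The KLK4 call in Scr ended without DMSO replicate 1 (0.21, adjusted p = 0.131) and without AT7519 replicate 2 (0.13, adjusted p = 0.29). That in siOGT1 ended without DMSO replicate 1 or 2 (0.27 and 0.26, adjusted p = 0.062 and 0.0756) and without AT7519 replicate 2 (0.25, adjusted p = 0.0781). The KLK2 call in OSMI2 ended without DMSO replicate 1 (0.33, adjusted p = 0.115) and without AT7519 replicate 2 (0.26, adjusted p = 0.205). KLK3 in OSMI2 passed without DMSO replicate 2 (0.38, adjusted p = 0.0224) or AT7519 replicate 1 (0.34, adjusted p = 0.0247).

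The AT7519 response itself was compared between arms by an interaction term, and no member passed. The difference of siOGT1 from Scr was -0.06, SE 0.19, adjusted p = 1 for KLK2, -0.10, SE 0.15, adjusted p = 1 for KLK3, 0.0055, SE 0.12, adjusted p = 1 for KLK4 and 0.05, SE 0.32, adjusted p = 1 for KLK15, where 0.0504% of tested genes passed. For siOGT2 the values were -0.17 for KLK2, -0.15 for KLK3, -0.28, SE 0.12, adjusted p = 1 for KLK4 and 0.10 for KLK15, where 0% of genes passed. That count of 0 from edgeR stood beside 3 genes called by DESeq2. An unadjusted p under 0.05 in edgeR was seen for 928 genes, fewer than a share of 0.05 of the 23830 tested. For OSMI2 the values were 0.39, SE 0.19, adjusted p = 0.572 for KLK2, 0.14, SE 0.15, adjusted p = 0.908 for KLK3, -0.25, SE 0.12, adjusted p = 0.552 for KLK4 and 0.59, SE 0.33, adjusted p = 0.658 for KLK15, where 0.747% of genes passed.

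Genes known to regulate the kallikreins or to act with their transcription factors mostly fell with AT7519. Of 13 regulators, all tested, 2 rose, 10 fell and 1 did not pass in Scr, with a median log2 fold change of -0.63 against -0.05 over all genes. Of all tested genes, 19.4% rose and 22% fell in siOGT1, 22.2% rose and 22.8% fell in siOGT2, 23.6% rose and 23.6% fell in OSMI2, and 21.8% rose and 24.6% fell in Scr. In siOGT1 1 rose and 10 fell (median -0.62 against -0.05), in siOGT2 2 rose and 11 fell (median -0.54 against -0.03), and in OSMI2 1 rose and 11 fell (median -0.73 against 0.02). GRHL2, an epithelial transcription factor, had 43.9 and 51.0 CPM with AT7519 and 103 and 118 CPM under DMSO in Scr. GRHL2 fell there (log2 fold change -1.22, SE 0.11, adjusted p = 3.90e-08) and in each other arm, at -1.26 in siOGT1 (adjusted p = 4.80e-08), -1.20 in siOGT2 (adjusted p = 7.69e-08) and -1.11 in OSMI2 (adjusted p = 1.12e-07). Its AT7519 and DMSO libraries did not overlap in any arm.

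In Scr the regulators with the smallest adjusted p were the steroid receptor coactivator NCOA2 (log2 fold change -0.85, SE 0.08, adjusted p = 2.37e-08), GRHL2 and the coactivator NCOA1 (-0.74, SE 0.09, adjusted p = 7.88e-07). PIAS1, a SUMO ligase, led with GRHL2 and NCOA2 in siOGT1 (-0.98, SE 0.11, adjusted p = 8.06e-07) and OSMI2 (-1.21, SE 0.11, adjusted p = 4.84e-08). The 2 that rose in Scr were the pioneer factor FOXA1 (0.47, SE 0.08, adjusted p = 1.17e-04) and the demethylase KDM1A (0.25, SE 0.07, adjusted p = 0.00678). Falls outnumbered rises for the regulators under each scaling, with at least 9 falls in each arm.

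**Figure D3:**
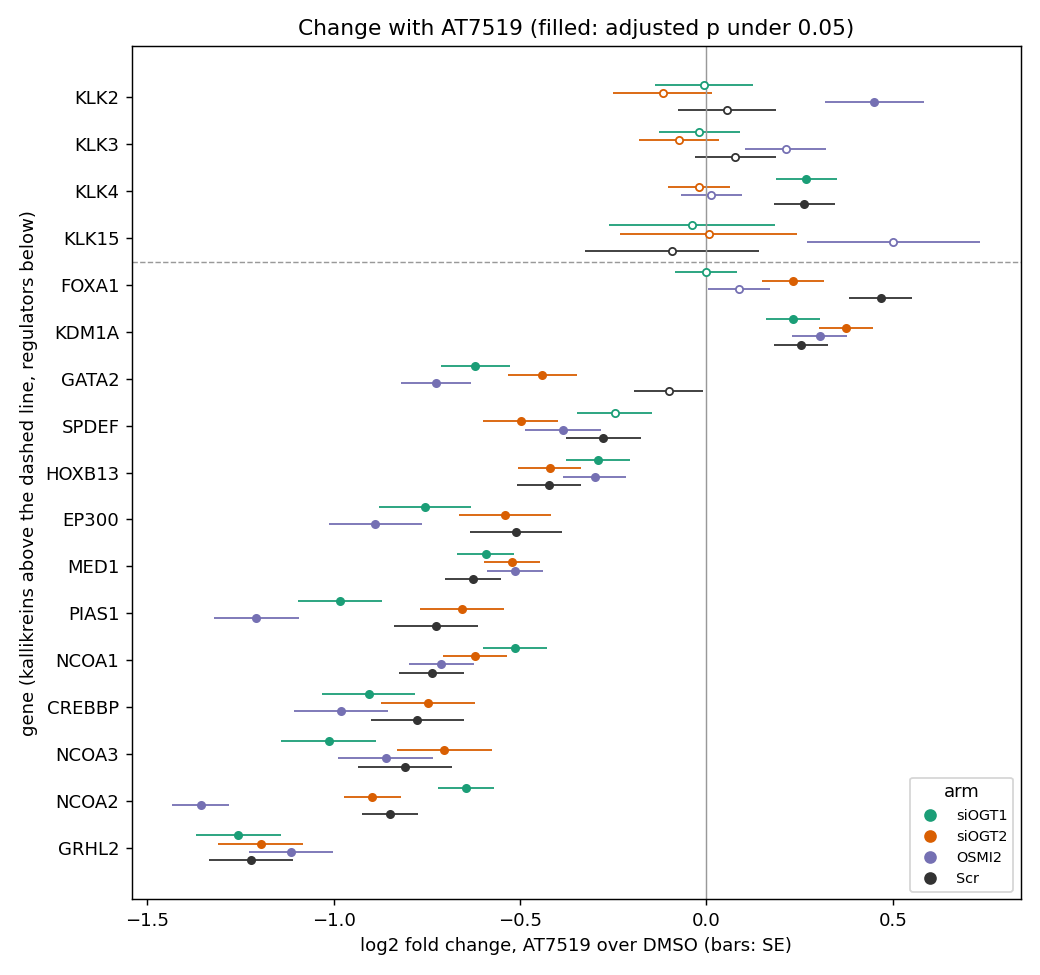
Log2 fold change with AT7519 over DMSO for the 4 kallikreins (above the dashed line) and 13 regulators, ordered by the Scr value, in each arm; bars are standard errors and filled points passed an adjusted p of 0.05. The kallikreins lie near or above 0, and most regulators, down to GRHL2, lie below it.

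In Scr and siOGT2 other androgen-regulated genes were called with AT7519 at shares near those of all tested genes (46.5% and 45%). Those counts are no result about them. Their share was above the 41.5% of all tested genes in siOGT1 and the 47.2% in OSMI2, and those differences were not tested. Of 20, all tested, 4 rose and 6 fell in Scr (median -0.12), 5 rose and 6 fell in siOGT1 (median -0.01), 4 rose and 5 fell in siOGT2 (median -0.01), and 5 rose and 8 fell in OSMI2 (median -0.10). In Scr the metalloreductase STEAP2 (log2 fold change -0.57, SE 0.07, adjusted p = 1.68e-06), the transcription factor MAF (-1.95, SE 0.25, adjusted p = 2.38e-06) and PMEPA1, a restrainer of TGF-beta signalling (-0.99, SE 0.13, adjusted p = 2.77e-06), fell with the smallest adjusted p. In siOGT1 TPD52 (0.45, SE 0.08, adjusted p = 1.36e-04) and sorbitol dehydrogenase SORD (0.43, SE 0.08, adjusted p = 2.36e-04) rose. The split moved with the scaling, to 7 higher and 4 lower in Scr with upper-quartile scaling and 2 higher and 12 lower with library size only.

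Against Scr under DMSO, 1 of 13 regulators passed with siOGT1, none with siOGT2 and 1 with OSMI2, where 10.4% of all genes passed with siOGT1, 4.3% with siOGT2 and 2.98% with OSMI2. With siOGT1 only SPDEF, an ETS factor of luminal cells, passed among the regulators, and it rose (log2 fold change 0.34, SE 0.10, adjusted p = 0.0314), and with OSMI2 only KDM1A passed, which fell (-0.27, SE 0.07, adjusted p = 0.0461). Of the 20 other androgen-regulated genes, 2 rose and 1 fell with siOGT1, 1 rose and 3 fell with siOGT2, and 2 rose and 1 fell with OSMI2. The co-chaperone FKBP5 fell in siOGT1 (-0.45, SE 0.09, adjusted p = 0.00231), siOGT2 (-0.35, SE 0.09, adjusted p = 0.0248) and OSMI2 (-0.35, SE 0.09, adjusted p = 0.0342), and SLC45A3, the prostein transporter, rose in siOGT1 (0.53, SE 0.11, adjusted p = 0.00421), siOGT2 (0.64, SE 0.11, adjusted p = 0.00212) and OSMI2 (0.43, SE 0.11, adjusted p = 0.0408). STEAP2 rose in siOGT1 (0.32, SE 0.07, adjusted p = 0.00567) and OSMI2 (0.40, SE 0.07, adjusted p = 0.00476). The kinase CAMKK2 (-0.47, SE 0.11, adjusted p = 0.0154) and the lipid phosphatase PLPP1 (-0.56, SE 0.10, adjusted p = 0.00341) fell in siOGT2. PLPP1 was higher in siOGT1 than in siOGT2 under DMSO (0.78, SE 0.10, adjusted p = 1.55e-04) and with AT7519 (0.83, SE 0.10, adjusted p = 2.28e-05), as were KLK2 and KLK3. With AT7519, GATA2, a zinc finger transcription factor, was lower than in Scr in siOGT1 (-0.41, SE 0.09, adjusted p = 0.00346), siOGT2 (-0.51, SE 0.09, adjusted p = 0.00158) and OSMI2 (-0.67, SE 0.09, adjusted p = 8.98e-05).

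Other secreted products and antigens of luminal cells were called with AT7519 at a share near the 46.5% of all genes in Scr. In siOGT1, siOGT2 and OSMI2 it was above the 41.5%, 45% and 47.2% of all genes, and those differences were not tested. Of 7 tested of 9, 2 rose and 1 fell in Scr, 2 rose and 2 fell in siOGT1, 3 rose and 1 fell in siOGT2, and 2 rose and 2 fell in OSMI2. AZGP1, a secreted glycoprotein of seminal fluid, rose in Scr (log2 fold change 0.71, SE 0.13, adjusted p = 1.19e-04), siOGT1 (0.62, SE 0.13, adjusted p = 4.76e-04), siOGT2 (0.63, SE 0.13, adjusted p = 4.69e-04) and OSMI2 (0.62, SE 0.13, adjusted p = 4.37e-04). ACP3, prostatic acid phosphatase, rose in siOGT2 under DMSO (0.56, SE 0.14, adjusted p = 0.0365) and with AT7519 (0.56, SE 0.14, adjusted p = 0.0224), where KLK3 fell. Of 5 tested of 7 stromal markers COL1A1 (-0.95, SE 0.16, adjusted p = 8.73e-04) and LUM (-2.34, SE 0.64, adjusted p = 0.0231) fell with siOGT1 under DMSO, where 10.4% of all genes passed and 5.51% fell. LUM was near the floor, at 0.037 and 0.065 CPM in siOGT1 and 0.265 and 0.223 CPM in Scr under DMSO. COL3A1 (0.20), ACTA2 (0.49) and PDGFRB (-0.16) did not pass. With AT7519, 3 of these 5 rose in Scr, where 21.8% of all tested genes rose. OSMI2 had 2 higher (23.6% of all tested genes), siOGT1 had 1 (19.4%) and siOGT2 had none (22.2%). Differences from the shares of all genes were not tested. Of 2 tested of 5 neuroendocrine markers SYP rose with siOGT1 under DMSO (0.76, SE 0.19, adjusted p = 0.0115) and CHGA did not pass (0.15, adjusted p = 0.955). The summed stromal level was 20.1 to 31.9 CPM in siOGT1, 23.3 to 31.1 CPM in siOGT2, 28.3 to 50.4 CPM in OSMI2 and 30.2 to 46.1 CPM in Scr, and DCN and COL1A2 were near 0. The summed neuroendocrine level was 5.71 to 7.16 CPM in siOGT1, 3.75 to 5.16 CPM in siOGT2, 3.26 to 4.31 CPM in OSMI2 and 2.76 to 3.8 CPM in Scr, and their part in the kallikrein values was not tested. All libraries are of 1 cell line. In bulk RNA, fewer cells that express a gene and less of its RNA per cell cannot be told apart.

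Among genes that act on or around the proteases, the inhibitors were mostly too low to test. Of 7 inhibitors of prostate kallikreins 3 were tested, and SERPINB6 rose with AT7519 in Scr (log2 fold change 0.28, SE 0.08, adjusted p = 0.00842), siOGT1 (0.26, SE 0.08, adjusted p = 0.0148), siOGT2 (0.42, SE 0.08, adjusted p = 2.76e-04) and OSMI2 (0.39, SE 0.08, adjusted p = 4.96e-04). SERPINA3, a serpin that binds KLK3 in serum, stayed under 0.2 CPM. Of 9 substrates 8 were tested. With AT7519, OSMI2 had 2 higher and 1 lower, siOGT2 had 2 higher, siOGT1 had 1 higher, and Scr had 1 higher and 1 lower. Of all tested genes 47.2% were called with AT7519 for OSMI2, 45% for siOGT2, 41.5% for siOGT1 and 46.5% for Scr. The shares of substrates were below these, and the differences were not tested. PTHLH, 1 of the 2 higher in siOGT2 (5.92, SE 2.27, adjusted p = 0.04), was near the floor. It had 0 and 0 CPM under DMSO and 0.157 and 0.048 CPM with AT7519 there. The receptor F2RL1 fell in Scr (-0.28, SE 0.09, adjusted p = 0.0164) and OSMI2 (-0.42, SE 0.09, adjusted p = 9.26e-04). Fibronectin (FN1) rose with AT7519 in Scr (0.54, SE 0.16, adjusted p = 0.0111), siOGT1 (0.52, SE 0.16, adjusted p = 0.0148), siOGT2 (0.60, SE 0.16, adjusted p = 0.00587) and OSMI2 (0.68, SE 0.16, adjusted p = 0.00223), and fell with siOGT1 under DMSO (-0.81, SE 0.16, adjusted p = 0.0044). The thrombin receptor F2R fell with siOGT1 (-1.04, SE 0.15, adjusted p = 2.15e-04) and siOGT2 (-0.77, SE 0.16, adjusted p = 0.00676) under DMSO.

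Of the 11 other tissue kallikreins, KLK1 and KLK5 to KLK14, only KLK1 and KLK14 passed the low-count filter, and each stayed under 0.5 CPM in every library. KLK14 had 4 and 3 counts with AT7519 and 25 and 31 counts under DMSO in Scr (log2 fold change -2.43, SE 0.72, adjusted p = 0.00905). It also fell in siOGT2 (-1.96, SE 0.69, adjusted p = 0.0254), with 4 and 7 counts with AT7519 and 28 and 11 counts under DMSO. KLK1, at 1 to 38 counts, passed in no comparison.

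KLKP1, a pseudogene that lies between KLK2 and KLK4 in the cluster, was looked at after its values had been seen. It had 12.1 and 11.2 CPM in siOGT1, 8.43 and 10.9 in siOGT2, 8.49 and 8.93 in OSMI2 and 6.78 and 5.81 in Scr under DMSO. All 3 arms stood above Scr, and KLKP1 passed in siOGT1 (log2 fold change 0.89, SE 0.17, adjusted p = 0.00232), where its neighbour KLK4 fell. With AT7519 it had 7.78 and 9.6 CPM in siOGT1, 6.7 and 8.68 in siOGT2, 5.43 and 7.08 in OSMI2 and 4.71 and 5.48 in Scr. The log2 fold change over DMSO was -0.42 ± 0.17 in siOGT1, -0.33 ± 0.18 in siOGT2, -0.49 ± 0.18 in OSMI2 (adjusted p = 0.0301) and -0.30 ± 0.18 in Scr. It thus fell in OSMI2, where KLK2 rose. An antisense gene, ENSG00000267968, overlaps KLK15 on the other strand and stayed under 1.2 CPM. The sources used here do not state whether strand was used in counting, so reads of KLK15 and this gene may not be separated.

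A ratio of 2 members within a library does not depend on the scaling. Over all arms, none of the 6 ratios passed for AT7519: the differences were -0.08 to 0.05 (log2) and the adjusted p was 0.856 for each (exact permutation of the agent within arms, 1296 permutations, two-sided, 16 libraries, Benjamini-Hochberg over 6 pairs). These pooled values average arms of opposite sign. For KLK4 over KLK15 the difference was 0.34 in siOGT1, -0.02 in siOGT2, -0.49 in OSMI2 and 0.37 in Scr. For KLK2 over KLK4 it was -0.27 in siOGT1, -0.10 in siOGT2, 0.43 in OSMI2 and -0.20 in Scr, and differences between arms were not tested. The OGT siRNA arms together differed from Scr in the 3 ratios that hold KLK15, which share that gene and are not separate results. The test takes siOGT1 and siOGT2 libraries as 1 condition, although KLK2 and KLK3 differed between these arms. KLK15 itself had log2 fold changes against Scr of 0.85 in siOGT1 and 0.02 in siOGT2 under DMSO. With AT7519 it had 0.91 in siOGT1 and 0.12 in siOGT2. The log2 ratio of KLK4 over KLK15 averaged 4.68 in the siRNA arms and 5.60 in Scr, a difference of -0.92. For KLK3 over KLK15 the means were 8.0 and 8.59 (difference -0.59), and for KLK2 over KLK15 they were 5.56 and 6.08 (difference -0.52). Each of these 3 had p = 0.00444, the smallest that the 225 permutations of siRNA labels within agent can give, and an adjusted p of 0.00889 (exact, two-sided, 12 libraries). The log2 ratio of KLK2 over KLK4 averaged 0.88 in the siRNA arms and 0.47 in Scr (difference 0.41, exact permutation p = 0.04, adjusted p = 0.06), and that of KLK3 over KLK4 averaged 3.32 and 2.99 (difference 0.33, adjusted p = 0.0693). The pooled differences hold unequal arms. KLK2 over KLK4 differed from Scr by 0.64 in siOGT1 and 0.19 in siOGT2 with AT7519, and by 0.71 in siOGT1 and 0.08 in siOGT2 under DMSO. KLK3 over KLK4 differed by 0.51 in siOGT1 and 0.15 in siOGT2 with AT7519, and by 0.62 in siOGT1 and 0.03 in siOGT2 under DMSO. KLK4 over KLK15 differed by -1.21 in siOGT1 and -0.84 in siOGT2 with AT7519, and by -1.18 in siOGT1 and -0.46 in siOGT2 under DMSO. The log2 ratio of KLK2 over KLK3 averaged -2.44 in the siRNA arms and -2.51 in Scr, and did not pass (exact permutation p = 0.431).

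**Figure D4:**
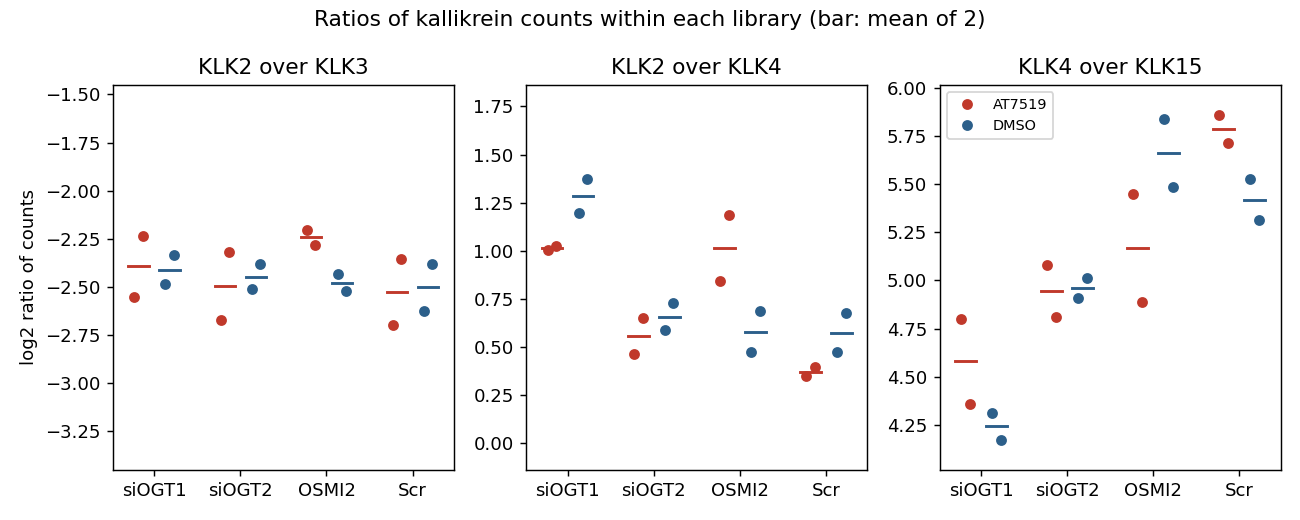
Log2 ratio of counts within each library for KLK2 over KLK3, KLK2 over KLK4 and KLK4 over KLK15, by arm, with AT7519 in red left of DMSO in blue; points are libraries, bars means of 2, and each y axis spans the same 2 log2 units. The group means of KLK2 over KLK3 lie between -2.53 and -2.24, and KLK4 over KLK15 is lower in both siRNA arms than in Scr.

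KLK2 and KLK3 were the pair with the highest likeness across the libraries, with a Pearson r of 0.93 between their log2 CPM over 16 libraries that fall into 8 groups. KLK4 had r of 0.64 with KLK2 and 0.65 with KLK3, and -0.03 with KLK15, while KLK15 had 0.69 with KLK2 and 0.56 with KLK3. Over 9889 named genes with a mean log2 CPM of 3 or more, those most like KLK2 were the drug efflux transporter ABCC1 (r = 0.89), the Sin3 corepressor subunit SUDS3 (0.88) and the semaphorin SEMA3F (0.86). SEMA3F (0.93), SUDS3 (0.91) and MLLT6 (0.89) were most like KLK3. KLK4 was most like COQ8B, a kinase-like protein of coenzyme Q synthesis (0.96), the sodium-proton exchanger SLC9A8 (0.94) and the cortisol-inactivating enzyme HSD11B2 (0.92). KLK15 was most like ANKRD13B (0.92), the tyrosine kinase PTK2B (0.88) and TAB3 (0.84). These r values are descriptions, and the libraries share arms, agents and depth.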

How the data were processed

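Total RNA of LNCaP cells was sequenced from strand-specific libraries, per the labels' protocols. The deposited main table holds raw read counts per gene made by the authors; the submitters' processing notes name STAR, HTSeq, DESeq2 and hg19, without roles or versions. A second deposited table holds the authors' normalised signal, which equals each count divided by a size factor per library, and it was used only to check the counts. Genes were named through GENCODE v29, which is on GRCh38.

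All 16 libraries entered edgeR 4.0.16 in R 4.3.3 with 8 groups, filterByExpr, TMM factors and robust quasi-likelihood fits. Each contrast was tested two-sided and adjusted by Benjamini-Hochberg over 23830 genes, with calls at an adjusted p under 0.05. The standard error is the log2 fold change divided by the root of the F statistic. Ratios within a library were tested by exact permutation within strata. CPM use TMM-scaled library sizes. The fit was tested on simulated data with known changes.

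The members and gene lists were chosen with earlier results of these data known. Some listed regulators and luminal markers are not reported here and enter no list count or sum. Genes named from a list are the 3 with the smallest adjusted p in a comparison; others were chosen after their values were seen. Alternatives were upper-quartile, RLE and library-size scaling, no low-count filter, a fit of the compared groups only, DESeq2 1.42.0, a replicate block and leaving out each library. With 40216911 to 147019364 counts per library, counting error is small for KLK2, KLK3 and KLK4, and the 2 libraries per group limit precision. Reads carry no molecular identifiers.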

Additional observations from a re-analysis of the deposited data

Results flagged for a closer look

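Both siRNAs target OGT, and the kallikreins differed between them when the arms were tested against each other. In siOGT1 over siOGT2 under DMSO the log2 fold change was 0.74 for KLK2 and 0.71 for KLK3. With AT7519 it was 0.85 for KLK2, 0.76 for KLK3, 0.40 for KLK4 and 0.79 for KLK15. Each of these 6 passed an adjusted p of 0.05 in edgeR's quasi-likelihood test over all genes, in a comparison added after the values had been seen. Of all tested genes 1.82% passed under DMSO (0.705% higher) and 6.43% with AT7519 (2.87% higher). The KLK2 call under DMSO and the KLK4 and KLK15 calls with AT7519 ended under some alternatives. Against Scr the 2 arms lay on opposite sides for KLK2 under DMSO, at 0.39 in siOGT1 (adjusted p = 0.0769 in the same test) and -0.36 in siOGT2 (adjusted p = 0.16). Residual OGT also differed between the arms, and its part in these differences was not tested.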

How the results depend on the processing

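Of 60 results on the members 20 were called, 5 of them under every alternative run, and no called value changed sign. Values below are log2 fold changes, and the cause of each change was not tested.

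Upper-quartile scaling turned the sign of uncalled AT7519 responses: KLK15 in Scr (0.064), KLK2, KLK3 and KLK15 in siOGT1 (0.13, 0.11 and 0.10), and KLK3 and KLK4 in siOGT2 (0.033 and 0.087). It also turned the siOGT1 interaction of KLK4 (-0.017), ended the KLK3 call in siOGT2 under DMSO (-0.37), and brought KLK3 (0.38) and KLK15 (0.67) in OSMI2 with AT7519 past the threshold. RLE scaling and DESeq2 gave the same turns: KLK2 and KLK3 in siOGT1 (0.032 and 0.022 with RLE scaling, 0.031 and 0.022 with DESeq2), KLK4 in siOGT2 (0.0085), KLK4 in OSMI2 against Scr with AT7519 (-0.0091) and the siOGT1 interaction of KLK4 (-0.0018). DESeq2 also called KLK2 in siOGT1 (0.38) and KLK4 in OSMI2 (0.27) under DMSO and KLK15 in siOGT1 over siOGT2 (0.82).

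Library size only turned the AT7519 responses of KLK2 and KLK3 in Scr (-0.19 and -0.17), KLK15 in siOGT2 (-0.26), and KLK3 and KLK4 in OSMI2 (-0.037 and -0.24). It ended the AT7519 calls of KLK4 in Scr (0.020) and siOGT1 (0.045) and of KLK2 in OSMI2 (0.20), and the calls against Scr of KLK4 (-0.27) and KLK3 (-0.35) in siOGT1 and siOGT2 under DMSO and of KLK4 (-0.25) and KLK2 (-0.50) in siOGT1 and siOGT2 with AT7519. It brought KLK3 (-0.34) and KLK4 (-0.29) in siOGT2 with AT7519, KLK3 in siOGT1 (0.35) and KLK4 in OSMI2 (0.37) past the threshold.

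Without a low-count filter KLK4 turned in OSMI2, with AT7519 over DMSO (-0.041) and against Scr (-0.026). KLK2 and KLK3 then passed in siOGT1 (0.39 and 0.31) and OSMI2 (0.29 and 0.28) under DMSO, as did KLK2 in siOGT2 (-0.36), KLK2 in siOGT1 with AT7519 (0.32) and KLK15 between the siRNAs under DMSO (0.84). A fit of the compared groups only turned the AT7519 responses of KLK2 in siOGT1 (0.0026), KLK15 in siOGT2 (-0.00089) and KLK4 in OSMI2 (-0.024). It ended the calls with AT7519 of KLK4 (-0.29) and KLK15 (0.93) in siOGT1, KLK2 in siOGT2 (-0.53), and KLK4 (0.42) and KLK15 (0.80) between the siRNAs, and it called KLK2 (0.39) and KLK3 (0.31) in siOGT1, KLK4 in OSMI2 (0.30) and KLK15 between the siRNAs (0.82) under DMSO.

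Replicate numbers could not be shown to pair the libraries, since each group has only 2, although replicate differences correlated at 0.60 to 0.73 among Scr, siOGT1 and siOGT2 within an agent. With a replicate block KLK15 turned in siOGT2 with AT7519 (-0.013), and KLK15 in OSMI2 with AT7519 (0.50 over DMSO, 0.64 over Scr), KLK2 in siOGT1 (0.39), siOGT2 (-0.35) and OSMI2 (0.28) and KLK4 in OSMI2 (0.27) under DMSO, KLK2 in siOGT1 with AT7519 (0.33), the OSMI2 interaction of KLK2 (0.39) and KLK15 between the siRNAs under DMSO (0.83) passed. A replicate block within each agent, chosen after seeing the data, turned the AT7519 responses of KLK3 in siOGT1 (0.029), KLK15 in siOGT2 (-0.14) and KLK4 in OSMI2 (-0.016). It called KLK2 in siOGT1 (0.39), siOGT2 (-0.35) and OSMI2 (0.28) and KLK4 in OSMI2 (0.27) under DMSO, KLK2 in siOGT1 (0.33) and KLK15 in OSMI2 (0.65) with AT7519, the OSMI2 interaction of KLK2 (0.39) and KLK15 between the siRNAs (0.83).

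Counts of called genes moved as follows. OSMI2 against Scr under DMSO called 710 genes, against 378 with upper-quartile scaling, 390 with library size only, 1575 with the compared groups only, 1429 with DESeq2, 1224 with a replicate block and 2391 with the block within each agent. siOGT2 under DMSO called 1025 genes, against 1633 with the compared groups, 1598 with DESeq2, and 1605 and 2574 with the 2 blocks. siOGT1 under DMSO called 2479 genes, against 3925 with the compared groups and 4387 with the block within each agent. With AT7519, siOGT1 called 4566 genes, against 2533 with the compared groups. siOGT2 called 1945 genes, against 247 with the compared groups and 3931 with the block within each agent, and OSMI2 called 3382, against 5555 with that block. The siOGT1 interaction called 12 genes, against 20 with library size only, 100 without a filter, 118 with DESeq2, and 34 and 218 with the 2 blocks. The siOGT2 interaction called 0, against 8 without a filter, 3 with DESeq2 and 6 with the block within each agent. The OSMI2 interaction called 178, against 551, 475, 376 and 784 without a filter, with DESeq2 and with the 2 blocks, and 285 with the compared groups. Between the siRNAs under DMSO 433 genes were called, against 697 without a filter, 825 with the compared groups, 783 with DESeq2, and 678 and 1300 with the 2 blocks. With AT7519 1532 genes were called, against 273 with the compared groups and 3190 with the block within each agent.

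When 1 library at a time was dropped, the AT7519 responses ranged in Scr from -0.10 to 0.23 for KLK2, 0.13 to 0.42 for KLK4 and -0.31 to 0.12 for KLK15, and in siOGT1 from -0.089 to 0.072 for KLK2, -0.13 to 0.10 for KLK3, 0.25 to 0.31 for KLK4 and -0.31 to 0.19 for KLK15. In siOGT2 they ranged from -0.25 to 0.0065 for KLK2, -0.056 to 0.016 for KLK4 and -0.17 to 0.17 for KLK15, and in OSMI2 from 0.26 to 0.56 for KLK2, -0.017 to 0.38 for KLK3 and -0.057 to 0.016 for KLK4. Against Scr under DMSO the ranges were -0.37 to -0.27 for KLK4 and 0.70 to 1.01 for KLK15 in siOGT1, -0.44 to -0.38 for KLK3, -0.49 to -0.39 for KLK4 and -0.14 to 0.17 for KLK15 in siOGT2, and -0.16 to 0.21 for KLK15 in OSMI2. With AT7519 they were 0.16 to 0.49 for KLK2, -0.46 to -0.17 for KLK4 and 0.62 to 1.14 for KLK15 in siOGT1, -0.69 to -0.36 for KLK2 and -0.084 to 0.35 for KLK15 in siOGT2, and 0.47 to 0.80 for KLK2, 0.17 to 0.53 for KLK3 and -0.16 to 0.13 for KLK4 in OSMI2. The interactions ranged from -0.23 to 0.11 for KLK2, -0.22 to 0.0087 for KLK3, -0.14 to 0.15 for KLK4 and -0.24 to 0.28 for KLK15 in siOGT1, from -0.12 to 0.32 for KLK15 in siOGT2 and from -0.11 to 0.30 for KLK3 in OSMI2. Between the siRNAs they were 0.66 to 0.83 for KLK2 under DMSO, and 0.37 to 0.44 for KLK4 and 0.50 to 1.01 for KLK15 with AT7519. The log2 ratios under AT7519 ranged from -0.079 to 0.0076 for KLK2 over KLK4, -0.040 to 0.066 for KLK2 over KLK15, -0.13 to 0.059 for KLK3 over KLK15 and -0.022 to 0.12 for KLK4 over KLK15. For the siRNA arms against Scr they were -0.0088 to 0.16 for KLK2 over KLK3, 0.34 to 0.47 for KLK2 over KLK4 and 0.25 to 0.40 for KLK3 over KLK4.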
